A study of Mus musculus with 15 samples.

Results

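Fat cells attached to or lying within a heart carry transcripts that heart muscle cells make little of, and 9 such adipocyte marker genes were followed in hearts of Lmna mutant mice: Adipoq, Plin1, Cidec, Retn, Cfd, Fabp4, Lep, Ucp1 and Pparg. Every probe set of the array that is annotated to exactly 1 of these genes was taken, without regard to its signal. That gave 10 of the 45101 probe sets of the table. They name 7 of the 9 genes, out of 18194 genes that the array names in this way, Fabp4 with 4 probe sets and the other 6 genes with 1 each. Plin1 and Cfd were not analysed here.

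Whole hearts of 15 male mice were measured at an age of 10 weeks, each on a 1-colour Affymetrix expression array with biotin-labelled total RNA. Of these, 7 mice were heterozygous for Lmna H222P, an amino acid substitution in lamins A and C, the filament proteins of the nuclear lamina, and 8 were controls. The labels give no strain, no further genotype of the controls and no statement on how fat, vessels or atria were trimmed. The numbers in the titles count mice within a group. The p-values of group differences weigh the difference between groups against the spread of hearts within them. No litter or batch is named, so whether these differed between the groups is unknown.

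Adipocytes store triglyceride in a large lipid droplet and release hormones into the blood. The nuclear receptor PPAR-gamma, with factors of the C/EBP family, drives their differentiation and switches on genes for lipid uptake, for droplet coating and for the hormones adiponectin and leptin. Mouse hearts carry small fat depots at the surface and near the base, and some of these genes, above all Fabp4, are also expressed by the endothelial cells of heart capillaries. In whole hearts fewer fat cells and less RNA per fat cell cannot be told apart.

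The deposited signals are in linear array units, and the trimmed mean of every array was 250 units. Array medians lay between 56.7 and 82.9 units in heterozygous hearts and between 68.5 and 94.2 units in controls. Heart muscle transcripts were present on every array: the summed signal of 7 cardiomyocyte markers, among them Myl3, Myl2 and Mb, lay between 93744 and 245771 units in heterozygous hearts and between 119266 and 359657 units in controls. The number of arrays limits the precision, and dim probe sets scattered more. Over 500 probe sets with a mean like that of Adipoq the median SD between arrays within groups was 1.04 on the log2 scale, and over 500 with a mean like that of the brightest Fabp4 probe set it was 0.32. The median difference of all tested probe sets, heterozygous minus control, was -0.11 on the log2 scale, and it was 0.10 once array medians were set equal, so differences of that size are not read as changes.

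The question put to these genes was whether heterozygous hearts held more or less adipocyte transcript than control hearts, and whether the markers moved together from heart to heart. None of the 8 tested probe sets passed limma's moderated test at an adjusted p of 0.05, where 0.252% of all 38870 tested probe sets did, 0.09% being higher and 0.162% lower in heterozygous hearts. At an unadjusted p under 0.05 there was 1 of 8, the probe set of Adipoq, beside 14.6% of all tested probe sets. Of the 8 differences 5 were above 0 and 3 below 0, with a median of 0.07 (log2). Testing required a log2 signal above 4 on 7 or more arrays, which left out Lep and Ucp1. The groups overlapped in all 10 probe sets, and 0.468% of all tested probe sets had groups that did not overlap.

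**Figure D1:**
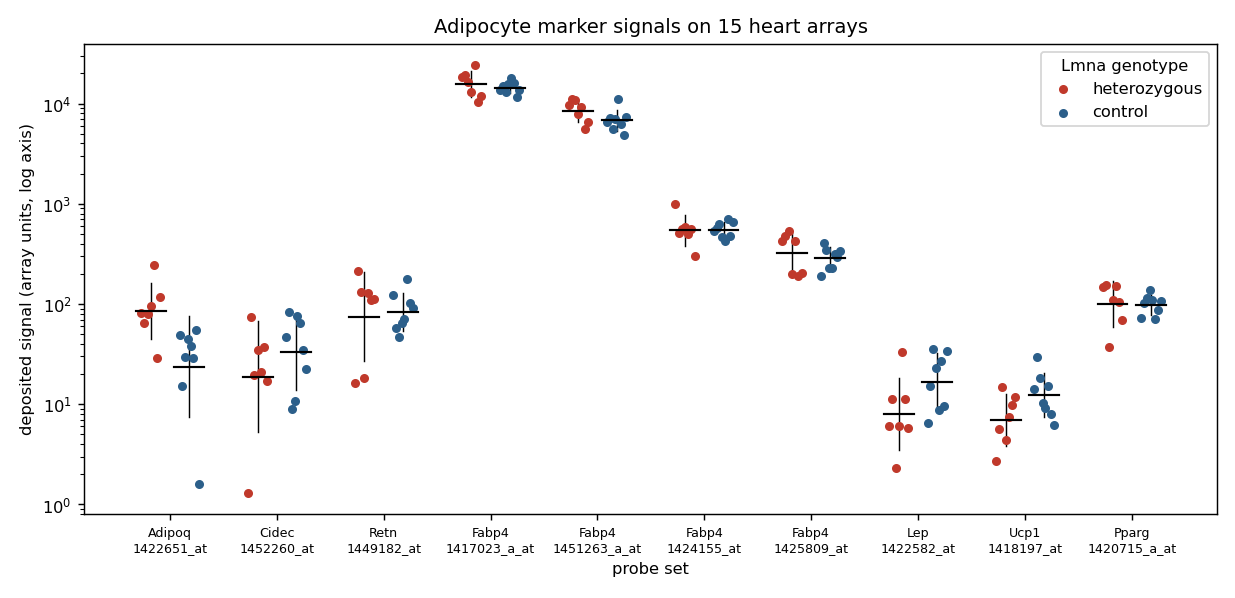
Deposited signal (array units, log axis) of the 10 adipocyte marker probe sets, 1 point per array, with the 7 heterozygous hearts left of the 8 controls in each pair. Horizontal lines are geometric means and vertical lines 1 SD of the log2 signals. The groups overlap in every probe set, and Adipoq has 6 heterozygous arrays above every control.

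Among the secreted products, adiponectin had the largest point estimate. Adiponectin (Adipoq) is a hormone made almost only by adipocytes that sensitises tissues to insulin. In heterozygous hearts its signals were 81.6, 65.2, 79.6, 95.7, 243.6, 28.8 and 117.7 units for arrays 1 to 7. In controls they were 49.0, 15.3, 29.8, 44.5, 38.4, 28.8, 54.5 and 1.6 units for arrays 1 to 8. Thus 6 of 7 heterozygous arrays lay above every control, and heterozygous array 6 lay among the controls. A pattern with at least 6 of 7 heterozygous arrays above every control was found in 0.751% of all tested probe sets. Mean log2 signals were 6.42 ± 0.93 (SD, n = 7) in heterozygous hearts and 4.56 ± 1.67 (SD, n = 8) in controls, a 3.63-fold ratio of geometric means. The log2 difference was 1.86 with a standard error of 0.67 and a 95% interval of 0.44 to 3.28. It did not pass over all probe sets (limma's unadjusted p = 0.0139, adjusted p = 0.233). Control array 8, at 1.6 units, decides much of the size: without it the difference was 1.30, with limma's adjusted p = 0.170.

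The 250 bases before the Adipoq start are shown because this gene had the largest difference of the 7 measured markers. Sequences are from RefSeq, build GRCm38.p6, and 6 of the 7 measured genes had an entry. Each was searched on both strands for TTGCGCAA, the palindromic site of C/EBP factors, for AGGTCA, the half-site of nuclear receptors such as PPAR-gamma, and for CCAAT, a general promoter element. These motifs are capitalised and do not overlap one another here. Of 32851 RefSeq promoter windows of the same length, 0.164% hold TTGCGCAA, 14% AGGTCA and 33.8% CCAAT. The Adipoq window lies at chr16:23146286-23146535 on the plus strand and holds 3 matches of CCAAT or its reverse complement ATTGG, all close to the start, and neither of the other motifs.
Adipoq: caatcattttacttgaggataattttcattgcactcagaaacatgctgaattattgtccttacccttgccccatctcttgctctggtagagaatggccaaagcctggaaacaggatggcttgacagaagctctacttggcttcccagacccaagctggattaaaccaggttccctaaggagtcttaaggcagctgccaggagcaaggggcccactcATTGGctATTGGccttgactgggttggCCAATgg

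Leptin (Lep), the adipocyte hormone that reports fat stores to the brain, was dim on most arrays. Its signals lay between 2.3 and 33.0 units with a median of 6.1 in heterozygous hearts, and between 6.5 and 35.8 units with a median of 19.1 in controls. Only 5 of 15 arrays exceeded the log2 signal of 4, so it was not tested in the comparison above. With no filter the difference was -1.06 ± 0.52 (SE), with limma's adjusted p = 0.388. Heterozygous array 5, the brightest for Adipoq, was also the brightest heterozygous array for Lep, while in controls array 3 was brightest for Lep and array 7 for Adipoq.

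The Lep window is shown because it holds the rarest of the searched motifs. It lies at chr6:29059971-29060220 on the plus strand and has 1 match of TTGCGCAA shortly before the start. Lep and the other marker windows printed here are read as letters only, since no binding was measured in these hearts.
Lep: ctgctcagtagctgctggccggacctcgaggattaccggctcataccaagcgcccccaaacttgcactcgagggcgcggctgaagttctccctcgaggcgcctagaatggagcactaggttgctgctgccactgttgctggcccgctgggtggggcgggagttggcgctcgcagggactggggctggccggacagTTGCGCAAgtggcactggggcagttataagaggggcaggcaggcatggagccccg

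Resistin (Retn) is a hormone of mouse adipocytes that impairs insulin action. Its signals lay between 16.3 and 212.2 units with a median of 111.6 in heterozygous hearts, and between 46.5 and 176.7 units with a median of 80.8 in controls. Heterozygous arrays 1 and 4, at 16.3 and 18.1 units, were below every control, and heterozygous array 2 was above every control. Mean log2 signals were 6.22 ± 1.48 (SD, n = 7) in heterozygous hearts and 6.39 ± 0.63 (SD, n = 8) in controls. The difference of -0.17, with a 95% interval of -1.32 to 0.98, did not pass (limma's adjusted p = 0.915). Its sign turned with array medians set equal (0.039) and without heterozygous array 1 (0.20).

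The lipid droplet protein was weak and uneven. Cidec joins small lipid droplets into the single large droplet of white fat cells. Its signals were 1.3, 74.0, 19.5, 34.7, 20.8, 37.6 and 17.0 units on heterozygous arrays 1 to 7. On control arrays 1 to 8 they were 47.0, 83.7, 9.0, 10.9, 76.4, 64.6, 34.6 and 22.4 units. Mean log2 signals were 4.24 ± 1.85 (SD, n = 7) in heterozygous hearts and 5.05 ± 1.25 (SD, n = 8) in controls. The difference of -0.81, with a 95% interval of -2.41 to 0.79, did not pass (limma's adjusted p = 0.649). It was -0.17 without heterozygous array 1, the array at 1.3 units. Adipoq and Cidec therefore had point estimates of opposite sign, and the interval of Cidec includes 0.

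Fabp4, the fatty acid binding protein of adipocytes and of capillary endothelium, was bright in every heart. Its brightest probe set lay between 10284 and 24079 units with a median of 16267 in heterozygous hearts, and between 11613 and 17948 units with a median of 14388 in controls. Heterozygous arrays 1, 2 and 5 exceeded every control, and heterozygous array 6 was the lowest of all 15. Mean log2 signals were 13.93 ± 0.43 (SD, n = 7) in heterozygous hearts and 13.82 ± 0.20 (SD, n = 8) in controls. The difference of 0.11, with a 95% interval of -0.28 to 0.50, did not pass (limma's adjusted p = 0.820). The other 3 probe sets of Fabp4 gave differences of 0.31 for the next brightest, -0.02 for the third and 0.17 for the dimmest, with limma's adjusted p between 0.485 and 0.977. In the next brightest the signals lay between 5566 and 11004 units in heterozygous hearts and between 4822 and 11030 units in controls.

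The Fabp4 probe sets did not all follow one another. With group means removed, the brightest and the next brightest moved together over the 15 arrays (Pearson's r = 0.77, permutation p = 0.00069, adjusted over 6 pairs to 0.00414, and Spearman's rho = 0.82, permutation p = 0.00034). Without the 2 arrays farthest from the median, heterozygous 5 and 6, r was 0.82. The third had r = 0.19 with the brightest (permutation p = 0.495, rho = -0.03 with permutation p = 0.913). A single probe set of Fabp4 therefore does not stand for the others.

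Ucp1, the proton carrier by which brown fat makes heat, exceeded the filter on the fewest arrays. Its signals lay between 2.7 and 14.9 units with a median of 7.4 in heterozygous hearts, and between 6.2 and 29.9 units with a median of 12.2 in controls. Only 2 of 15 arrays, control arrays 2 and 3, exceeded a log2 signal of 4. With no filter the difference was -0.81 ± 0.39 (SE), with limma's adjusted p = 0.382. The Ucp1 window is printed beside that of Lep because it holds 1 AGGTCA half-site near the start, at chr8:83290098-83290347 on the plus strand. It is not alone in this: 2 of the 3 Pparg windows also hold 1 AGGTCA, at 28 and 9 bases before the start, against 14 bases for Ucp1.
Ucp1: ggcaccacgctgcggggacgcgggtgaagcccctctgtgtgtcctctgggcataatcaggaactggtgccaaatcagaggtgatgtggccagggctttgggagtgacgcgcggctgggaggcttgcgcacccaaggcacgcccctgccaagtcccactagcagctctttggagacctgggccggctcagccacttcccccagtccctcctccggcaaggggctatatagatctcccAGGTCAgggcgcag

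Pparg encodes the nuclear receptor PPAR-gamma that heads this programme. Its signals were 149.3, 156.2, 37.4, 109.4, 151.0, 105.4 and 68.7 units on heterozygous arrays 1 to 7, and between 70.7 and 137.4 units with a median of 105.0 in controls. Heterozygous arrays 1, 2 and 5 exceeded every control and arrays 3 and 7 lay below every control, so the spread was wider in heterozygous hearts, with SDs of 0.76 (n = 7) and 0.33 (n = 8) on the log2 scale. This difference in spread was not tested. The difference of means was 0.04 with a 95% interval of -0.58 to 0.65, and it did not pass (limma's adjusted p = 0.966). It lay between -0.067 and 0.28 with single arrays left out, so its sign is not settled.

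**Figure D2:**
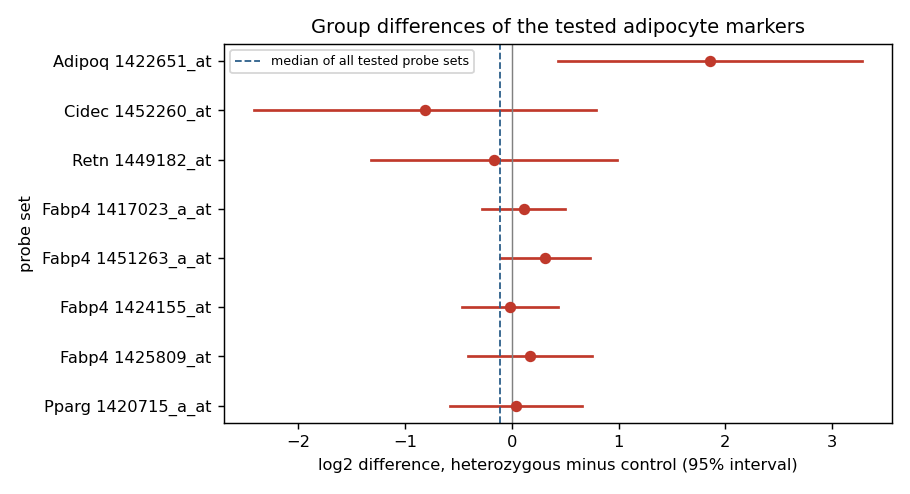
Log2 differences, heterozygous minus control, of the 8 tested adipocyte marker probe sets with 95% intervals from limma. The dashed line is the median of all tested probe sets. The interval of Adipoq, 0.44 to 3.28, lies above 0 before adjustment for 38870 probe sets, and the other 7 include 0.

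Whether the markers moved together from heart to heart was examined with group means removed, 1 probe set per gene and 21 pairs of the 7 measured genes. No pair passed after adjustment over the 21 pairs, the smallest adjusted permutation p being 0.229 for Pearson's r and 0.365 for Spearman's rho. Of the 21 coefficients 11 were above 0, and their median was 0.00. At an unadjusted permutation p under 0.05 there were 3 pairs by Pearson's r and 2 by Spearman's rho. The 6 pairs of Adipoq had r between -0.21 and 0.28. Adipoq with Cidec had r = -0.03 (permutation p = 0.913, rho = -0.19 with permutation p = 0.490), and Adipoq with Retn had r = 0.00 (permutation p = 0.997, rho = 0.03 with permutation p = 0.923). Without control 8 and heterozygous 6, the 2 arrays farthest from the Adipoq median, these were -0.10 and 0.19.

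Cidec and Retn had r = 0.57 over the 15 arrays (permutation p = 0.0277, adjusted p = 0.237, rho = 0.39 with permutation p = 0.151). Within the heterozygous arrays r was 0.62 (exact permutation p = 0.155, n = 7) and within the controls 0.45 (exact permutation p = 0.262, n = 8). Without heterozygous array 1, where Cidec had 1.3 and Retn 16.3 units, and control array 3, r was 0.13, so the relation rests on those arrays. Lep and Pparg had r = 0.63 (permutation p = 0.0109, adjusted p = 0.229, rho = 0.53 with permutation p = 0.0423), and 0.34 without heterozygous arrays 3 and 5. Ucp1 and Pparg ran against each other at r = -0.54 (permutation p = 0.0339, adjusted p = 0.237, rho = -0.51 with permutation p = 0.0522), and at -0.59 without control array 2 and heterozygous array 1. In neither group was 1 heart the brightest for all 7 markers. Among heterozygous hearts array 5 was first for Adipoq, Fabp4 and Lep, array 2 for Cidec, Retn and Pparg, and array 3 for Ucp1. Among controls array 7 was first for Adipoq and last for Fabp4, and array 8 was last for Adipoq and Ucp1.

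**Figure D3:**
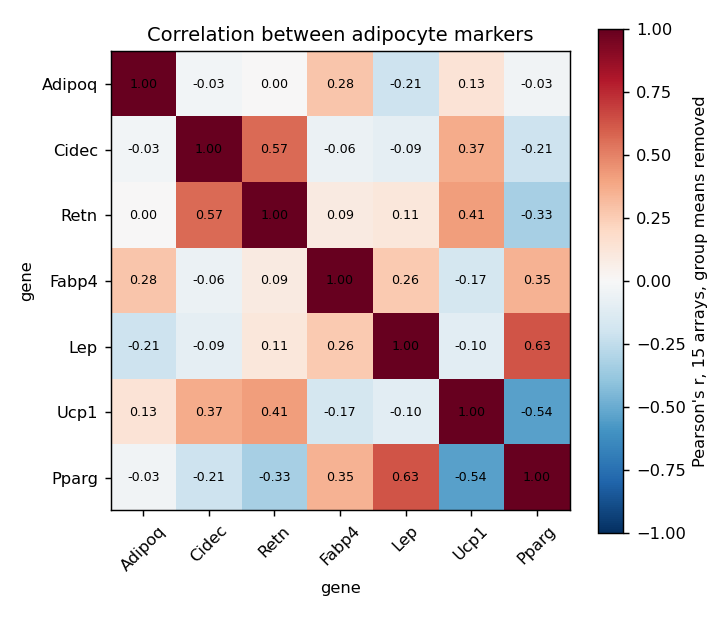
Pearson's r between the 7 measured adipocyte markers over 15 arrays with group means removed, 1 probe set per gene. The 6 values of Adipoq lie between -0.21 and 0.28, and Lep with Pparg has the highest value, 0.63.

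**Figure D4:**
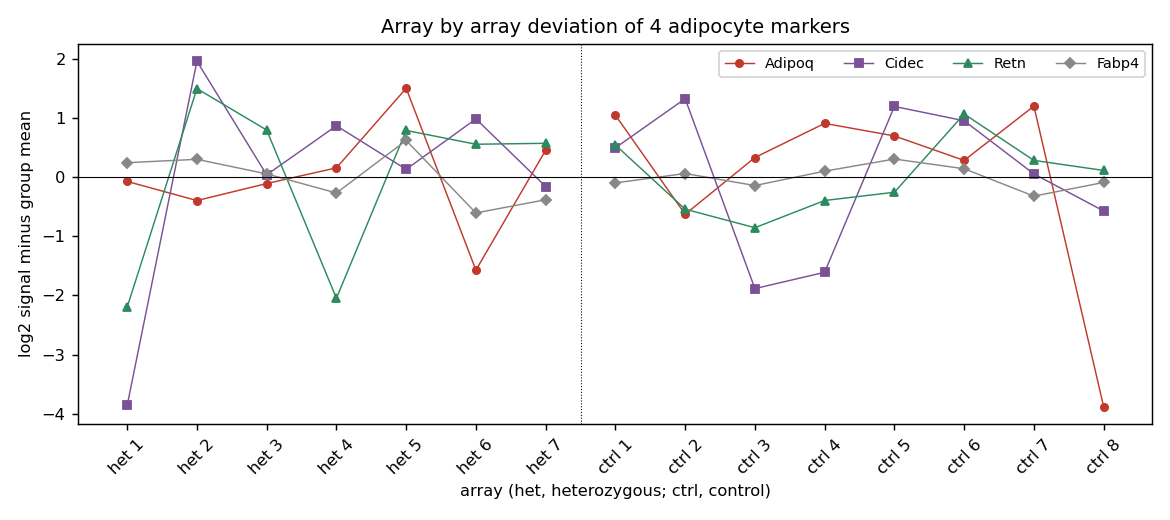
Log2 signal minus the group mean of Adipoq, Cidec, Retn and Fabp4 on each array, the 7 heterozygous arrays left of the 8 controls. Adipoq drops on control array 8, while Cidec drops on heterozygous array 1 together with Retn.

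The markers were also set against 8 array-level measures in 56 pairs, and none passed after adjustment (smallest adjusted permutation p 0.106), while 9 of 56 had an unadjusted permutation p under 0.05. Adipoq had r = 0.52 with the mean of the brown fat list (permutation p = 0.0417, adjusted p = 0.259, rho = 0.29 with permutation p = 0.301). Without control 8 and heterozygous 6 this was -0.04, so it rests on those arrays. Adipoq had r = 0.32 with the mean of 5 atrial muscle markers (permutation p = 0.239, rho = 0.10 with permutation p = 0.713), and 0.08 without control 8 and heterozygous 6. Of these 5 markers, Sln, Myl7 and Myl4 were higher in heterozygous hearts and passed, where 0.289% of all genes passed in either direction. Nppa at 1.83-fold and Bmp10 at 0.569 of control did not pass (limma's adjusted p = 0.251 and 0.548). On control array 6 the signals of Sln, Myl7 and Myl4 were 406.7, 1212.9 and 1399.8 units, above all other controls. The summed atrial signal, to which Nppa gave the most, lay between 6395 and 39702 units in heterozygous hearts. In controls it lay between 5550 and 10363 units. Heterozygous array 5 had the highest atrial sum as well as the highest Adipoq. The part of atrial or basal tissue in the Adipoq values was not tested. Fabp4 had r = 0.74 with the mean of the 7 cardiomyocyte markers (permutation p = 0.00189, adjusted p = 0.106, rho = 0.74 with permutation p = 0.0021). Its r was -0.64 with the mean of 5 endothelial markers (permutation p = 0.0106, adjusted p = 0.132, rho = -0.57 with permutation p = 0.0287). Without heterozygous arrays 5 and 6 this was -0.53 (permutation p = 0.0624). Retn had a like value with the endothelial mean, r = -0.62 (permutation p = 0.0147, adjusted p = 0.132, rho = -0.58 with permutation p = 0.0256). The cardiomyocyte markers Myl2, Myl3, Myh6, Tnnt2 and Mb lay near a common level on an array. That level was 15214.2 to 16047.8 units on heterozygous array 6 and 19765.5 to 21354.7 units on control array 7. On control array 5 it was wider, 58497.6 to 72758.9 units. The part of an upper limit or scaling of array signals in the r of Fabp4 was not tested. Retn had r = 0.65 with the array median (permutation p = 0.00858, adjusted p = 0.132, rho = 0.64 with permutation p = 0.0123), and 0.40 without heterozygous arrays 1 and 4. With the log2 ratio of 3' to 5' Actb control signal, Retn had r = 0.62 (permutation p = 0.0142, adjusted p = 0.132, rho = 0.58 with permutation p = 0.0266). This was 0.61 without heterozygous arrays 1 and 4. Fabp4 had r = 0.60 with this ratio (permutation p = 0.0188, adjusted p = 0.132), and 0.40 without heterozygous arrays 5 and 6. The ratio lay between 0.33 and 1.69 in heterozygous hearts and between 0.29 and 1.23 in controls. The part of array brightness or of this ratio in the marker values was not tested.

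The genes most like the adipocyte hormones and droplet protein were sought over the 15 arrays among 19492 probe sets of other named genes with a mean log2 signal of at least 6. The measure of likeness was Pearson's r with the mean of Adipoq, Cidec and Retn, group means removed. The 10 closest were Ctxn2, Kansl1l, Zim3, Tmem164, Ccnjl, Osbpl7, 1810044D09Rik, Uox, 4930503B20Rik and Ass1, with r between 0.83 and 0.91. None of these 10 is in the adipocyte lists used here. Those lists hold 62 tested genes, few beside 19492 probe sets, so their absence from the 10 decides nothing. As a description, the 62 tested genes of those lists had a median r of -0.04 with Adipoq alone, ranging from -0.45 to 0.60, beside a median of 0.03 over all tested probe sets. The highest of the 62 was Prdm16, a factor of brown fat identity. Over all tested probe sets other than that of Adipoq, r ran from -0.80 to 0.90. Prdm16, like Adipoq, was lowest of its group on control array 8 and on heterozygous array 6, at 335.6 and 240.8 units. The part of these arrays in its r was not tested. For Fabp4, a gene looked at after its values were seen, the 10 closest genes all code for respiratory chain or ribosomal proteins. They include the complex I subunit genes Ndufa13 (r = 0.96) and Ndufb9 (r = 0.96), the complex III subunit gene Uqcrh (r = 0.96) and the ribosomal protein gene Rps29 (r = 0.95). All 10 were bright, with mean log2 signals from 12.58 to 14.28, and the part of a common array level in these values was not tested.

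Other genes of lipid storage and adipocyte function did not pass either. Of 42 listed genes 39 were tested, 0 passed in either direction over all probe sets, where 0.289% of all genes passed. At an unadjusted p under 0.05 there were 8 of 39, where 15.2% of all genes were under it. Their median difference was 0.01 (log2), beside -0.08 over all 16627 tested genes, with 20 differences above 0 and 19 below 0. The 4 with the smallest p were Lpin1, Cebpb, Sncg and Rbp4. Lpin1, a phosphatidate phosphatase of triglyceride synthesis and coactivator of PPAR factors, lay between 1870.5 and 3186.2 units in heterozygous hearts and between 3156.8 and 3941.7 units in controls, at 0.704 of control (limma's adjusted p = 0.168). Only 1 heterozygous array reached into the range of the controls, and the other Lpin1 probe set stood at 0.790 of control. Cebpb, a C/EBP factor of early fat cell differentiation, stood at 0.691 of control (adjusted p = 0.229), with 1462.1 to 2582.7 units in heterozygous hearts and 2020.2 to 3862.3 units in controls.

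Sncg, which codes for gamma-synuclein and is expressed in white fat and in neurons, stood at 0.313 of control (limma's adjusted p = 0.230), with heterozygous signals from 5.8 to 162.1 units and control signals from 58.6 to 120.3 units. Heterozygous array 1 lay above every control and the other 6 lay below every control. Rbp4, the retinol carrier that adipocytes and liver secrete, stood at 2.43-fold (adjusted p = 0.250). It had 106.3, 115.8, 80.0, 110.9, 234.1, 130.7 and 72.6 units on heterozygous arrays 1 to 7, and 9.2 to 149.7 units in controls. Heterozygous array 5 was again the brightest. Control arrays 1, 2 and 7, at 82.3, 149.7 and 92.8 units, lay within the heterozygous range of Rbp4, and the other 5 lay below it.

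Car3, a carbonic anhydrase abundant in fat and in slow skeletal muscle, was singled out after its values were seen because its difference was the highest of the list. Its signals were 238.7, 3.0, 326.0, 328.1, 841.1, 308.7 and 381.2 units on heterozygous arrays 1 to 7, and 102.5, 9.8, 39.4, 129.2, 35.8, 62.3, 63.7 and 41.6 units on control arrays 1 to 8. Thus 6 of 7 heterozygous arrays lay above every control and heterozygous array 2 lay below every control. As given for Adipoq, 0.751% of all tested probe sets had at least 6 of 7 heterozygous arrays above every control. The ratio was 3.83-fold with limma's adjusted p = 0.372. Without heterozygous array 2 the log2 difference was 2.93 in place of 1.94 and passed, with limma's adjusted p = 0.0292. The other 3 tested probe sets of Car3, all dimmer, gave -0.14, 0.45 and 0.56 (log2) without passing.

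Of 12 tested genes of brown fat 0 passed and 1 had an unadjusted p under 0.05 (15.2% of all genes did), with a median difference of -0.12. The smallest p was that of Ebf2, a factor of brown fat precursors, at 1.65-fold (limma's adjusted p = 0.186). Its signals lay between 92.8 and 191.2 units in heterozygous hearts and between 66.6 and 190.8 units in controls. Of the 3 tested probe sets of Ebf2 this was the brightest, with a log2 difference of 0.721. The others gave 0.267 and 0.032 (limma's adjusted p = 0.818 and 0.978), so the size of the difference was not shared by them. Acot11, a thioesterase of brown fat, stood at 1.14-fold, Prdm16 at 0.804 and the coactivator gene Ppargc1a at 0.822 of control, with adjusted p between 0.534 and 0.621. Cidea, the Cidec relative that marks brown fat, was picked after its values were seen and lay between 702.4 and 1604.1 units in heterozygous hearts and between 693.4 and 1016.5 units in controls.

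Of 12 tested genes for adipokine receptors, for PPAR and RXR partners and for relatives of the markers, 0 passed and 3 had an unadjusted p under 0.05, beside the same 15.2% of all genes. The next 3 genes and Fabp3 were picked after their values were seen. The adiponectin receptor genes Adipor1 and Adipor2 stood at 0.944 and 0.974 of control, and Cdh13, which binds adiponectin on the cell surface, at 0.889 of control, with limma's adjusted p between 0.773 and 0.911. The leptin receptor gene Lepr stood at 1.36-fold (adjusted p = 0.515). Ppara, the PPAR of fatty acid oxidation in heart muscle, had 470.0, 966.9, 1105.6, 302.1, 330.3, 502.7 and 854.1 units on heterozygous arrays 1 to 7, and 695.1 to 1260.6 units in controls. It stood at 0.530 of control (adjusted p = 0.181), while its other tested probe sets stood at 0.902 and 0.996. Cideb, the liver relative of Cidec, stood at 0.675 of control (adjusted p = 0.171), and Retnla, a resistin relative of alternatively activated macrophages, at 2.01-fold (adjusted p = 0.282). Fabp3, the fatty acid binding protein of heart muscle, stood at 0.957 of control (adjusted p = 0.921).

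**Figure D5:**
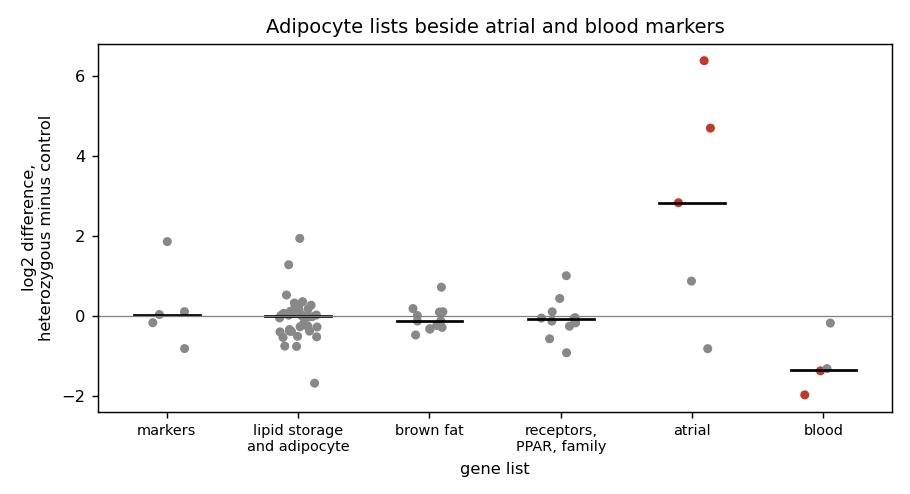
Log2 differences, heterozygous minus control, of 1 probe set per tested gene in the adipocyte lists and, beside them, in atrial and blood marker lists. Red points passed limma's adjusted threshold, black lines are medians, and the 4 adipocyte lists hold no red point.

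Other tissues that can be attached to a heart were followed by their markers. The summed signal of 6 mesothelial markers, among them Wt1, Lrrn4 and Upk3b, lay between 268.1 and 417.4 units in heterozygous hearts and between 322.0 and 561.6 units in controls. That of 6 lymphoid markers, among them Cd79a, Dntt and Cd3e, lay between 91.0 and 324.5 units in heterozygous hearts and between 151.7 and 318.0 units in controls. That of 4 lung epithelial markers, among them Sftpc and Scgb3a2, lay between 79.0 and 353.4 units in heterozygous hearts and between 113.0 and 326.8 units in controls. That of 5 fast skeletal muscle markers, among them Mylpf and Actn3, lay between 97.6 and 460.8 units in heterozygous hearts and between 51.8 and 437.6 units in controls. None of the tested genes in these 4 lists passed, and Rag1 and Scgb1a1 were too dim to be tested. No gene of these lists had a geometric mean above 95.4 units in either group, the value of Wt1 in controls. Such low signals limit what these sums can show. All 4 blood markers had differences below 0, and 2 of 4 passed (Alas2 and Ppbp), where 0.289% of all genes passed. Slc4a1 stood at 0.403 of control in its brightest probe set (limma's adjusted p = 0.134), and the other of its 2 tested probe sets passed. Pf4 stood at 0.886 of control (limma's adjusted p = 0.776). The blood sums were 1398.6 to 2994.9 units in heterozygous hearts against 2920.9 to 3661.8 units in controls. Endothelial markers had 0 of 5 past the threshold and sums of 3509.5 to 6556.2 units in heterozygous hearts and 3586.2 to 4253.0 units in controls. The part of these tissues in the marker values was not tested.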

How the data were processed

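Whole-heart total RNA was labelled with biotin and hybridised to Affymetrix arrays. The authors deposited 1 intensity per probe set and array, credited to GCRMA in the submitters' processing notes, with no version given in the sources used here. The values were linear and every array had a mean of 250 after trimming 2% at each end, so how probes were summarised and scaled is unknown. Detection calls were not used here. No signal was 0 or negative, so log2 was taken without a pseudocount. Of 45101 probe sets, 34958 name 1 gene by the platform annotation, 932 several and 9211 none. Probe sets with several genes were not named. After leaving out 64 control probe sets, those above a log2 signal of 4 on at least 7 of 15 arrays were tested (38870) with limma 3.58.1 in R 4.3.3 (lmFit, eBayes, two-sided, Benjamini-Hochberg over all tested probe sets, threshold 0.05). A gene was represented by its brightest tested probe set, and Lep and Ucp1, which were not tested, entered the pairs by their only probe set. Pairs were compared with Pearson's r and Spearman's rho and permutation p (100000 draws, exact within groups) in Python 3.11.15, and adjusted over the pairs. Figures were drawn with matplotlib 3.10.9. The fit was tested on simulated arrays.

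The markers, lists and tests were chosen with earlier results of these data known. All marker probe sets are named, with up to 4 genes of smallest p per adipocyte list, up to 3 of the brightest of other lists, and the 10 genes closest to the mean of Adipoq, Cidec and Retn. Plin1 and Cfd were not analysed here, so that mean holds 3 of the 5 genes of the rule. Genes named outside this rule are marked as picked after their values were seen. Alternatives were other filters, scalings and priors, a floor, array weights, a replicate block and leaving out each array. Same-numbered arrays had deviations correlated between -0.06 and 0.06, so the numbers were not taken to pair the mice.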

Additional observations from a re-analysis of the deposited data

Results flagged for a closer look

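In 20 groups of values (10 marker probe sets in each genotype), 2 held an array far from the others by Dixon's gap test at its 95% level, which chance alone gives in about 1 of 20 groups. Adipoq had 1.6 units on control array 8, while the other 7 controls lay between 15.3 and 54.5 units. Cidec had 1.3 units on heterozygous array 1, with 17.0 to 74.0 units on the other 6 arrays of that genotype. Both are the lowest value of their group.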

How the results depend on the processing

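No marker probe set passed under any of the 8 alternative settings or when any array was left out, and no pair of markers passed under 5 alternatives. The differences of Adipoq, Cidec and 3 of 4 Fabp4 probe sets kept their sign in all of these in which they were tested (Adipoq and Cidec were not tested with the filter at a log2 of 6). That of Adipoq ran from 0.58 (floor at a log2 signal of 6) to 2.12 (without heterozygous array 6), with limma's adjusted p between 0.162 and 0.333. Differences near 0 turned sign: Retn was 0.039 after centring on the array median, 0.066 after quantile normalization and 0.30 with the floor, and lay between -0.42 and 0.20 with each array left out. The third brightest Fabp4 probe set was 0.19 after centring and 0.0156 with the replicate block, and lay between -0.17 and 0.12 with each array left out. Pparg was -0.0345 with array weights and lay between -0.067 and 0.28 with each array left out. The cause was not tested. Among the other adipocyte genes, 1 passed with the floor, Car3 (adjusted p = 0.0343), and between 0 and 1 with each array left out. Over all probe sets, 98 calls became 192 with the filter at a log2 of 6, 287 with the floor, 312 with a trended and robust prior, 65 with centring, 65 with quantile normalization and 1 with the replicate block, and lay between 17 and 150 with each array left out. The replicate block leaves control array 8 without a partner, which gave an Adipoq difference of 1.30. It left 0 marker calls. In the block check, 1 of 7 heterozygous arrays correlated best with its own number. The low signals of Adipoq, Cidec, Lep and Ucp1 limit what these arrays can show.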

Other observations

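Some genes of the fat programme gave opposing values in different probe sets. Prdm16, at 0.804 of control in its brightest probe set, stood at 0.537 and 0.278 of control in 2 others (limma's adjusted p = 0.104 and 0.134) and at 1.04-fold in its dimmest. In the probe set at 0.537 every heterozygous array lay below every control. Groups that did not overlap, in either direction, were found in 0.468% of all tested probe sets. Lepr stood at 2.98-fold in 1 probe set and at 0.273 of control in another (adjusted p = 0.203 and 0.230), both of them weaker than its brightest probe set. Ppargc1a stood at 1.35-fold in 1 of its other probe sets (adjusted p = 0.223), on the other side of 1 from its brightest probe set.

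Within 500 probe sets of like mean signal, the residual spread between arrays of Adipoq, Cidec and Retn ranked at percentiles 91.0, 91.4 and 93.8. That of Pparg ranked at 52.4, while Lep and Ucp1 ranked at 2.6 and 0.2.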
